A study of Mus musculus with 18 samples.

Results

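The data are the ChIP-seq peaks that domain-swapped Foxa proteins left over the replication-dependent histone gene clusters of mouse induced hepatocyte-like (iHep) cells. Peaks were chosen by position: every peak of 9 deposited lists whose midpoint lay in mm9 chr13:21700000-24000000 (Hist1, 2.3 Mb) or chr3:96000000-96200000 (Hist2, 0.2 Mb). The rule found 208 of 60701 peaks, of which 181 came from the 8 Foxa lists (60003 peaks) and 27 from a library titled 4a3_DA1 (698 peaks). The windows were selected on earlier results of these data, because the 4a3_DA1 list was seen to be dense in them, so that density in 4a3_DA1 is a description and supports nothing.

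All cells were mouse embryonic fibroblasts of the C57BL/6 strain, prepared from embryos of 13.5 days post coitum and infected with Hnf4alpha together with a Foxa construct, so every group carries introduced Hnf4alpha. The 8 chimeras join domains of Foxa3 with domains of Foxa1 or Foxa2, and the name gives first the protein that supplies most of the construct, including the DNA-binding domain, and then the exchanged terminus and its source. Foxa3-C2, Foxa3-C1, Foxa2-N3 and Foxa1-N3 carry the Foxa3 N-terminal domain and were precipitated with a Foxa3 antibody. Foxa3-N2 and Foxa3-N1 carry the N-terminal domain of Foxa2 and of Foxa1, and Foxa2-C3 and Foxa1-C3 keep their own N-terminal domain and end in the Foxa3 C-terminal domain; the antibody for these 4 was against the protein that supplied the N-terminal domain (Foxa2, Foxa1, Foxa2 and Foxa1). Antibody, N-terminal domain and C-terminal domain thus changed together across the 8 libraries and cannot be told apart. The labels of 4a3_DA1 are at odds: the title has the form used for Foxa3-based constructs, while the other labels give infection with Foxa1 and Hnf4alpha and an Hnf4alpha antibody. Each construct had 1 ChIP library, with no replicate cultures, and the 9 input libraries were not analysed here. Sequencing depth is unknown, since the files list peaks and not reads, and the part of depth in list length and peak width was not tested.

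Replication-dependent histone genes encode the core histones H2A, H2B, H3 and H4 and the linker histone H1 that package newly made DNA in S phase. They are short, lack introns, lie in clusters, and end their mRNAs in a stem-loop in place of a poly(A) tail. Their transcription and mRNA processing take place in a nuclear compartment called the histone locus body. The Foxa proteins bind DNA through a forkhead domain, act in endoderm and liver, and are described as pioneer factors because they can bind sites in closed chromatin. Hnf4alpha is a nuclear receptor of the hepatocyte.

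The histone genes of these windows are described here only by name and order, from the RefSeq table of GRCm38.p6, since no mm9 annotation was used and coordinates of different builds were not mixed. On chromosome 13 that table lists 56 histone genes, 54 of them protein coding, with 6 of the H1, 15 of the H2A, 15 of the H2B, 9 of the H3 and 11 of the H4 class. H4bc24 was counted as H2B by its older symbol in the table, Hist1h2br, and its promoter sequence is identical to that of H2bc23. They form 3 runs, of 19 genes (H2bc13 to H4bc24), 5 genes (H2ac12 to H2bc11) and 32 genes (H4c8 to H2ac1). Between the first and second runs lie 39 other genes, 31 of them tRNA genes, and between the second and the third 147 other genes, 75 of them vomeronasal receptor (Vmn1r) and 46 tRNA genes. On chromosome 3 the table lists 10 histone genes in 1 run, H2ac21 to H2bc18. No peak was assigned to a gene.

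Promoter sequences are shown for 3 histone genes to show what the DNA at these gene starts looks like. The sequences run 5′ to 3′ on the gene's strand from 250 bases before to 50 bases after the annotated start (RefSeq, GRCm38.p6, chromosome 13, minus strand for all 3). Capitals mark TGTTTAC or TGTTTGC (words of the forkhead binding motif, on both strands), CCAAT (on both strands, so also ATTGG) and TATAAA (on the gene's strand). H2ac22 and H2ac11, which encode H2A, are the only histone promoters in the table with TGTTTAC or TGTTTGC. In each case it is TGTTTGC, read on the opposite strand after the annotated start. Other words of the forkhead motif were not searched and are not marked. H1f4 encodes a linker histone.
H2ac22: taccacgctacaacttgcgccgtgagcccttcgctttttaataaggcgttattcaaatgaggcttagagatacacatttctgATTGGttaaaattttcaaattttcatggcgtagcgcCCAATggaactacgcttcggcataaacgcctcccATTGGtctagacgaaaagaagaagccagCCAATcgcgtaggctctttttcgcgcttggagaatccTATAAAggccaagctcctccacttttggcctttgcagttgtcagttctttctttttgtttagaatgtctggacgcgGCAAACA
H2ac11: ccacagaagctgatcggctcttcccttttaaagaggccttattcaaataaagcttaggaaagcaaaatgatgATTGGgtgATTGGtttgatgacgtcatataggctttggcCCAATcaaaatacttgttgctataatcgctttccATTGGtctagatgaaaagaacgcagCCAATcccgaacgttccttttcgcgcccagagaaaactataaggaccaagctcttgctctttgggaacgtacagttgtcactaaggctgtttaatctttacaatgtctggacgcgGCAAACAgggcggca
H1f4: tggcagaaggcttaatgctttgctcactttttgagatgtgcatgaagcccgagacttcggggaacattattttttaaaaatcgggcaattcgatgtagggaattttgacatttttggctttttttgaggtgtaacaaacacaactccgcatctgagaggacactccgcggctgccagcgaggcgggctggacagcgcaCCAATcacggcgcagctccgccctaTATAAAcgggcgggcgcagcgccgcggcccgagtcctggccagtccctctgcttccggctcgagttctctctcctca

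Of the 66 histone symbols in the table, 59 had a promoter sequence, in 60 entries. TGTTTAC occurred in 0 of 60 of these promoters, against 3.65% of the 32851 promoters of all genes, and TGTTTGC in 2 (3.33%), against 5.07%. Either word occurred in 3.33% of histone promoters and 8.48% of all. Other words of the forkhead motif were not counted, so these shares do not cover the motif as a whole. CCAAT, the word bound by the NF-Y factor, occurred in 52 histone promoters (86.7%), against 37.4% of all, and TATAAA in 29 (48.3%), against 8.32%. By class, CCAAT occurred in 6 of 6 H1, 17 of 17 H2A, 16 of 16 H2B and 10 of 10 H3 promoters, but in 3 of 11 H4 promoters. TATAAA occurred in 4 of 6 H1, 10 of 17 H2A, 3 of 16 H2B, 4 of 10 H3 and 8 of 11 H4 promoters. The words say which letters stand in these 300 bases, and not which factor binds there.

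The number of peaks in the clusters differed widely between the lists. Among the constructs with the Foxa3 N-terminal domain, Foxa3-C2 had 36 cluster peaks of 3594, Foxa3-C1 63 of 7533, Foxa2-N3 20 of 5230 and Foxa1-N3 1 of 956. Among those with the Foxa3 C-terminal domain, Foxa3-N2 had 36 of 16543, Foxa3-N1 7 of 7625, Foxa2-C3 17 of 13715 and Foxa1-C3 1 of 4807. The 4a3_DA1 list had 27 of 698. Foxa3-C1 held the most peaks although its list was shorter than those of Foxa3-N2 and Foxa2-C3. Hist2, 0.2 Mb long, held 6 of the Foxa3-C2 peaks, 11 of Foxa3-C1, 3 of Foxa2-N3, 6 of Foxa3-N2, 3 of Foxa2-C3 and 9 of 4a3_DA1, and none of the other 3 lists.

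As a share of its own list, Foxa3-C2 had 1.002% of its peaks in the clusters (exact 95% interval 0.703 to 1.38%) and Foxa3-C1 0.836% (0.643 to 1.07%). Foxa2-N3 had 0.382% (0.234 to 0.590%) and Foxa1-N3 0.105% (0.00265 to 0.581%). Among constructs with the Foxa3 C-terminal domain the share was 0.218% in Foxa3-N2 (0.152 to 0.301%), 0.0918% in Foxa3-N1 (0.0369 to 0.189%), 0.124% in Foxa2-C3 (0.0722 to 0.198%) and 0.0208% in Foxa1-C3 (0.000527 to 0.116%). The intervals cover counting error only. The intervals of Foxa3-C2 and Foxa3-C1 overlapped each other, and neither overlapped that of another Foxa list. They treat close neighbours of 1 list as separate units, so the gap to other lists depends on that count. With sites merged within 1 kb the shares were 0.821% in Foxa3-C2, 0.617% in Foxa3-C1 and 0.371% in Foxa2-N3, with no interval taken. The 4a3_DA1 list had 3.87% (2.56 to 5.58%).

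**Figure D1:**
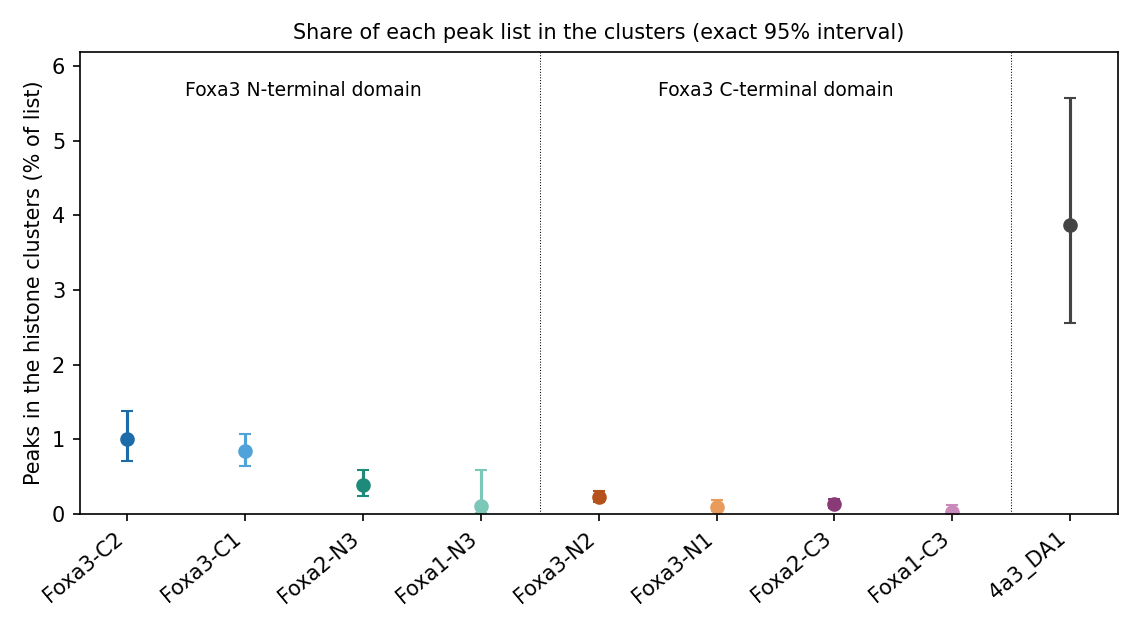
Percent of each peak list (y axis) that lies in the histone clusters, for the 8 Foxa constructs by terminal layout and for 4a3_DA1. Points are 1 library each and bars are exact 95% binomial intervals. Foxa3-C2 and Foxa3-C1 stand at 1.002% and 0.836%, above the other 6 Foxa lists, and 4a3_DA1 at 3.87%.

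The share was compared over constructs for the 3 ways in which they can be grouped, 4 against 4. These tests used the share that earlier results on windows holding the clusters had already shown to vary, so their p-values are no independent support. The share averaged 0.581 ± 0.412% in constructs with the Foxa3 N-terminal domain, against 0.114 ± 0.0817% in those ending in Foxa3 (SD, n = 4 each), a difference of 0.468 percentage points (exact two-sided permutation p = 0.0857, 0.257 after Benjamini-Hochberg adjustment over the 3 groupings). With the Foxa3 DNA-binding domain it averaged 0.537 ± 0.449%, against 0.158 ± 0.156% with that of Foxa1 or Foxa2 (difference 0.379, exact p = 0.229, adjusted 0.343). With Foxa2 as partner it averaged 0.431 ± 0.395%, against 0.263 ± 0.384% with Foxa1 (difference 0.168, exact p = 0.457, adjusted 0.457). None of the 3 differences passed the threshold of 0.05, and the smallest p that 4 against 4 can give is 0.0286.

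Within matched pairs, which share 2 of the 3 properties, the direction was the same in 4 of 4 pairs for each grouping (exact sign-flip p = 0.125, the smallest that 4 pairs can give). For the terminal layout the share was 4.603 times as high in Foxa3-C2 as in Foxa3-N2, 9.11 times in Foxa3-C1 as in Foxa3-N1, 3.09 times in Foxa2-N3 as in Foxa2-C3 and 5.03 times in Foxa1-N3 as in Foxa1-C3. For the DNA-binding domain it was 2.62 times as high in Foxa3-C2 as in Foxa2-N3, 7.995 times in Foxa3-C1 as in Foxa1-N3, 1.76 times in Foxa3-N2 as in Foxa2-C3 and 4.41 times in Foxa3-N1 as in Foxa1-C3. For the partner it was 1.198 times as high in Foxa3-C2 as in Foxa3-C1, 3.66 times in Foxa2-N3 as in Foxa1-N3, 2.37 times in Foxa3-N2 as in Foxa3-N1 and 5.96 times in Foxa2-C3 as in Foxa1-C3. Foxa1-N3 and Foxa1-C3 rest on 1 peak each. These ratios also carry list length. Foxa3-C2 and Foxa3-N2 had 36 cluster peaks each, so their ratio is that of lists of 3594 and 16543 peaks. Foxa2-N3 and Foxa2-C3 had 20 and 17 cluster peaks, while Foxa3-C1 and Foxa3-N1 had 63 and 7. By count, Foxa3-C2 lay below Foxa3-C1, with 36 against 63. The partner difference was the one that turned round when weak peaks were left out: among the strongest 956 peaks of each list it was -0.0523 percentage points, and without the Foxa3-C2 library it was -0.0221.

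The local background also differed by list. In flanks of equal length on either side of both windows, peaks were sparser for 4 of the 8 Foxa lists. Foxa3-C2 had 14.4 peaks per Mb in the clusters and 3.8 in the flanks, Foxa3-C1 25.2 and 5.8, and Foxa2-N3 8 and 3. Foxa3-N2 had 14.4 per Mb in the clusters and 9.4 in the flanks. Averaged over the whole windows, the other lists were no denser in the clusters than beside them. Foxa3-N1 had 2.8 per Mb in the clusters and 5.6 in the flanks, and Foxa2-C3 6.8 and 7.6. Foxa1-C3 had 0.4 and 2, and Foxa1-N3 0.4 and 1. The windows include a stretch of 1176 kb in which no list had a peak, so densities depend on the choice of windows. In 4a3_DA1 the clusters held 10.8 peaks per Mb and the flanks 1.6. The rest of chromosomes 13 and 3 held 1.64 per Mb in Foxa3-C2, 3.30 in Foxa3-C1, 2.39 in Foxa2-N3, 6.78 in Foxa3-N2, 3.19 in Foxa3-N1, 5.64 in Foxa2-C3 and 0.191 in 4a3_DA1. Foxa3-C1 peaks covered 61424 bp of the windows, or 2.46% of them, against 22527 bp for Foxa3-C2, 14205 bp for Foxa3-N2, 8830 bp for Foxa2-N3, 7896 bp for Foxa2-C3 and 2930 bp for Foxa3-N1.

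The peaks were not spread evenly over the windows. Regions, made by merging Foxa cluster peaks that shared at least 1 bp, numbered 79 and fell into 5 blocks when gaps over 100 kb were taken as borders. Block 1, chr13:21807490-21926848, held 17 regions, and block 2, chr13:22107855-22135490, held 4. Block 3, chr13:22277082-22281633, held 2 regions and no 4a3_DA1 peak. Block 4, chr13:23457964-23964916, held 43 regions, and block 5, chr3:96023477-96132742, held 13. The gaps between the blocks of chromosome 13 were 181, 142 and 1176 kb, and no list had a peak in the longest of them. The count of 3 runs of histone genes in the GRCm38.p6 table is set beside the 4 blocks of peaks on chromosome 13 as a description, with no match of block to run.

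**Figure D2:**
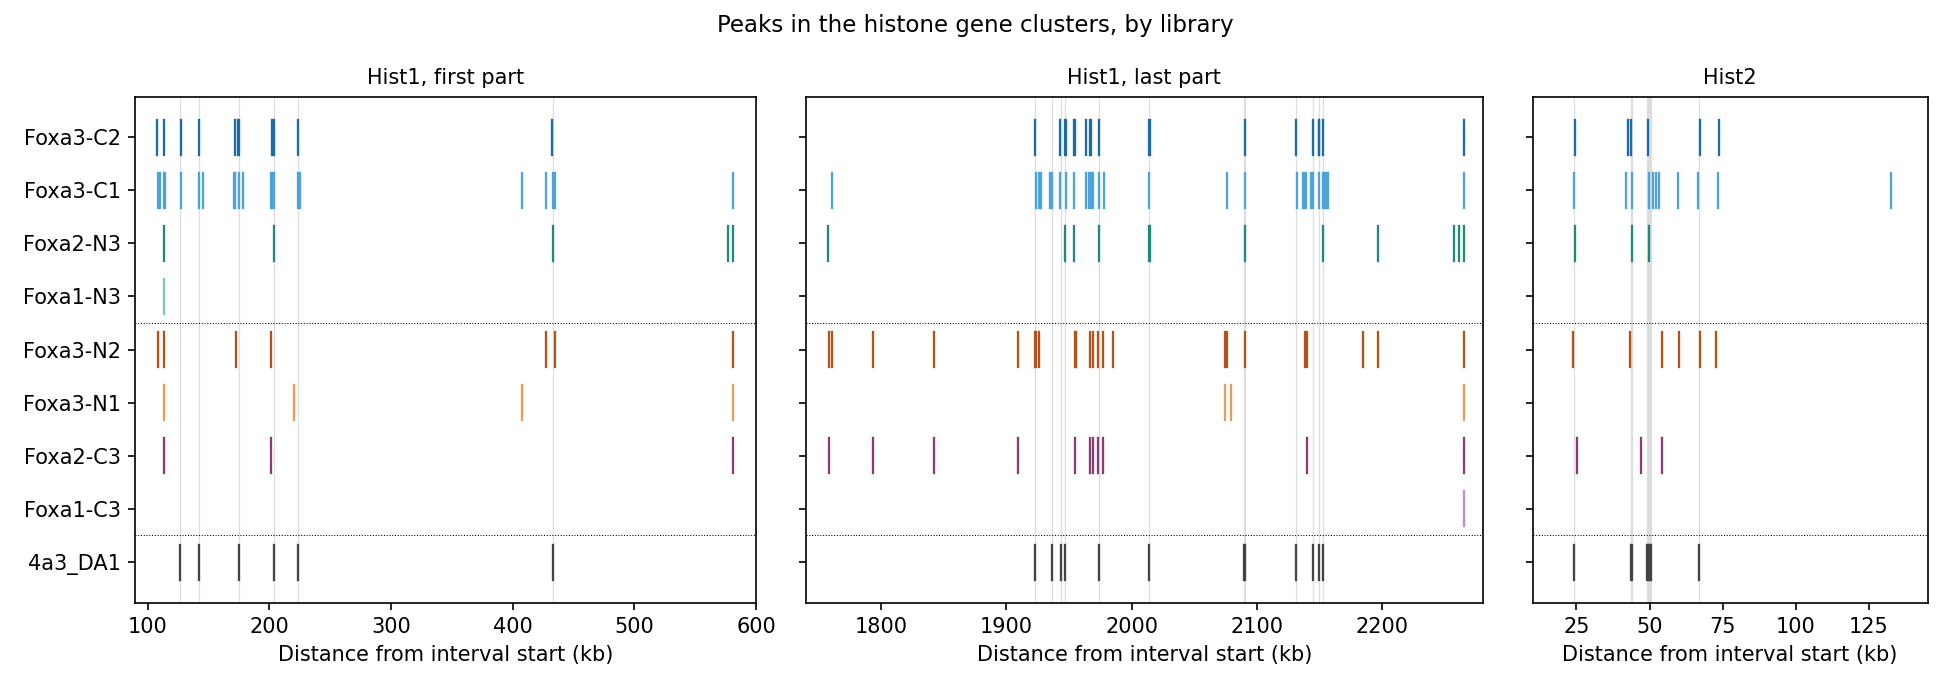
Position of every cluster peak (ticks) along Hist1, drawn as a first and a last part without the empty stretch between them, and along Hist2, in kb from the start of each window. Rows are libraries, with 4a3_DA1 at the bottom, and pale vertical lines mark 4a3_DA1 peaks. Foxa3-C1 has the most ticks, 63, whereas Foxa1-N3 and Foxa1-C3 have 1 tick each. Ticks and lines stand at midpoints. The 27 4a3_DA1 peaks met 21 Foxa3-C1 peaks, with midpoints up to 664 bp apart.

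Foxa3-C1 reached 16 of 17 regions in block 1, 4 of 4 in block 2, 1 of 2 in block 3, 30 of 43 in block 4 and 11 of 13 in block 5. Foxa3-N2 reached 4 of 17 in block 1 and 20 of 43 in block 4. Foxa3-C2 reached 9 of 17 in block 1 and 15 of 43 in block 4. Foxa2-C3 had 11 of its 17 regions in block 4. Peaks just inside and just outside the borders are given as a description of the choice of windows. The first cluster peak lay 108 kb inside the Hist1 border (Foxa3-C2, chr13:21807816-21808417) and the nearest peak before the border 154 kb outside it (Foxa3-C1, chr13:21545983-21546480). At the other end the last cluster peak lay 35.3 kb inside (Foxa3-C2, chr13:23964594-23964892) and the next peak 5.97 kb outside (Foxa3-N2, chr13:24005834-24006112). At Hist2 the first peak lay 23.7 kb inside the window (Foxa3-N2, chr3:96023477-96023901) and the one before it 35.7 kb outside (Foxa3-N2, chr3:95964074-95964557). The last lay 67.5 kb inside (Foxa3-C1, chr3:96132179-96132742) and the one after it 54.5 kb outside (Foxa3-C1, chr3:96254114-96254881).

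Cluster peaks stood close together in the 2 lists that combine the Foxa3 N-terminal and DNA-binding domains. The median distance between neighbouring midpoints was 6463 bp in Foxa3-C2 and 4343 bp in Foxa3-C1. It was 41854 bp in Foxa2-N3, 11614 bp in Foxa3-N2, 179464 bp in Foxa3-N1 and 45827 bp in Foxa2-C3, against 13342 bp in 4a3_DA1. Neighbours within 5 kb made up 38.2% of cluster gaps in Foxa3-C2, against 5.399% of the gaps in the rest of its list, and 55.7% against 9.40% in Foxa3-C1. The contrast was smaller in Foxa2-N3 (22.2% against 6.97%), Foxa3-N1 (16.7% against 7.71%), Foxa3-N2 (26.5% against 15.96%) and Foxa2-C3 (20% against 14.1%). These rest on 4 of 18 cluster gaps in Foxa2-N3, 1 of 6 in Foxa3-N1, 9 of 34 in Foxa3-N2 and 3 of 15 in Foxa2-C3. Distances in windows of fixed length also shrink as peaks become more numerous or 1 site is split into several peaks, and this part was not tested. In 4a3_DA1 close neighbours were about as common elsewhere, at 36% of gaps in the clusters against 40.2% in the rest.

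Width set Foxa3-C1 and Foxa3-C2 apart from the other lists. In Foxa3-C1 cluster peaks ranged from 325 to 2392 bp with a median of 976 bp, against a median of 454 bp in the rest of its list. In Foxa3-C2 they ranged from 283 to 1536 bp with a median of 607.5 bp, against 360 bp in the rest. In the other lists with more than 1 cluster peak the medians lay near those of the rest of the list, and below them for all constructs with the Foxa3 C-terminal domain. These medians were 409.5 bp against 407 bp in Foxa2-N3, 376.5 against 417 bp in Foxa3-N2, 389 against 413 bp in Foxa3-N1 and 418 against 462 bp in Foxa2-C3. The single cluster peak was 376 bp wide in Foxa1-N3 and 410 bp in Foxa1-C3, where the rest had medians of 307 and 413 bp. Peaks of 4a3_DA1 were narrow both in the clusters, with a median of 124 bp and a range of 84 to 622 bp, and elsewhere, with a median of 115 bp.

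**Figure D3:**
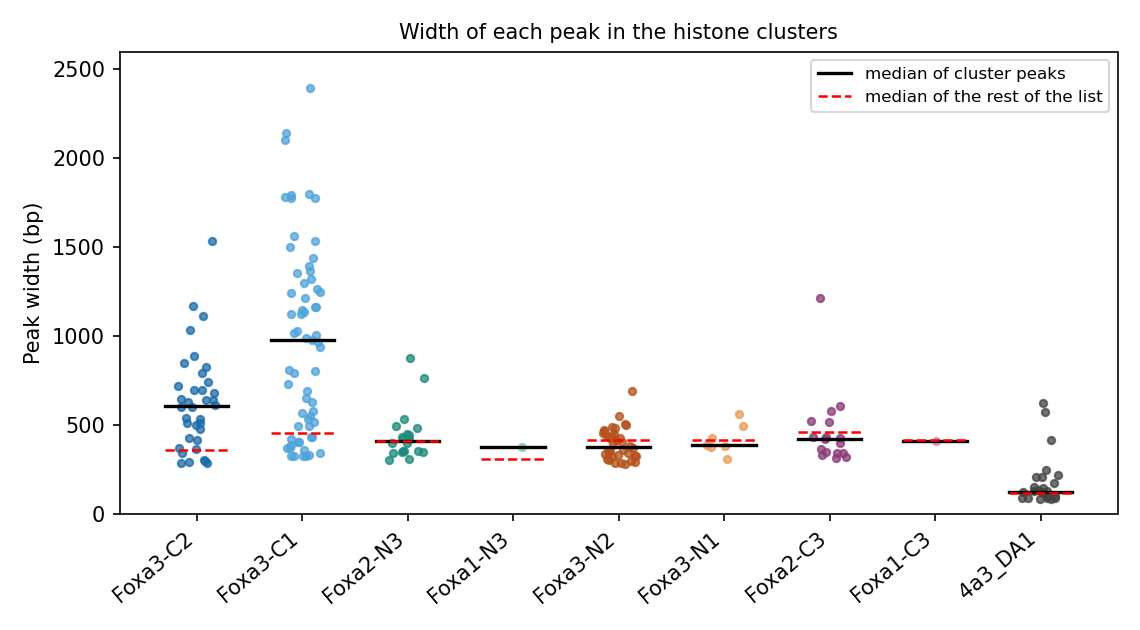
Width in bp of every cluster peak (points, spread sideways for view) in each library, with the median of the cluster peaks as a black line and that of the rest of the list as a dashed red line. Foxa3-C1 and Foxa3-C2 have black lines at 976 and 607.5 bp, above red lines at 454 and 360 bp. In the other lists the lines lie close together, and farthest apart in Foxa1-N3, at 376 and 307 bp.

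Peaks wider than 1000 bp were concentrated in the clusters in these lists. In Foxa3-C1, 30 of the 63 cluster peaks (47.6%) passed that width, against 69 peaks (0.924%) in the rest of the list, so that 30.3% of its 99 wide peaks lay in windows holding 0.836% of its peaks. In Foxa3-C2 the counts were 4 of 36 (11.1%) against 11 (0.309%), or 26.7% of its 15 wide peaks. Foxa2-C3 had 1 wide cluster peak of 17, and the other lists had none, although Foxa3-N2 had 106 wide peaks and Foxa2-C3 104 outside the clusters. The widest of all was a Foxa3-C1 peak of 2392 bp at chr13:21924457-21926848, which met no 4a3_DA1 peak. The widest Foxa3-C2 peak, 1536 bp at chr13:23830548-23832083, lay within a Foxa3-C1 peak of 2141 bp at chr13:23830428-23832568. The widest 4a3_DA1 cluster peak, 622 bp at chr13:23830725-23831346, fell in the same place. The widest peaks of the other lists were 877 bp in Foxa2-N3 (chr3:96049498-96050374), 690 bp in Foxa3-N2 (chr13:21813439-21814128), 562 bp in Foxa3-N1 (chr13:22281021-22281582) and 1215 bp in Foxa2-C3 (chr13:23654255-23655469).

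Widths were also compared within the same regions. Foxa3-C1 covered more bases than Foxa3-C2 in 28 of the 30 regions both reached, with medians of 1205 and 669 bp summed over the peaks of a region. It covered more than Foxa2-N3 in 12 of 14 regions (medians 1184 and 445 bp), more than Foxa3-N2 in 18 of 22 (1129 and 365.5 bp) and more than Foxa2-C3 in 6 of 9 (1005 and 418 bp). Against Foxa3-N1 it was wider in 1 of 4 regions (425.5 and 459 bp). Regions are not replicates, and these counts describe single libraries.

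By the authors' score, used only to rank peaks within a list, cluster peaks were spread through the lists and were seldom among the strongest. A rank percentile of 0 here stands for the strongest end of a list and 100 for the weakest. The median percentile was 70.7 in Foxa3-C2, 43.2 in Foxa3-C1, 68.7 in Foxa2-N3, 69.3 in Foxa3-N2, 48.7 in Foxa3-N1 and 75.1 in Foxa2-C3, against 39.97 in 4a3_DA1. Peaks in the stronger 50% of their list numbered 15 of 36 in Foxa3-C2, 36 of 63 in Foxa3-C1, 3 of 20 in Foxa2-N3, 8 of 36 in Foxa3-N2, 4 of 7 in Foxa3-N1 and 6 of 17 in Foxa2-C3, against 20 of 27 in 4a3_DA1. Among the strongest 956 peaks of each list, 5 cluster peaks remained in Foxa3-C2, 6 in Foxa3-C1 and 1 in Foxa1-N3, and none in the other 5 Foxa lists.

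The strongest cluster peak of both Foxa3-C1 and Foxa3-C2 lay at the same place, chr13:23673228-23674472 in Foxa3-C1 (1245 bp, rank 344) and chr13:23673234-23673949 in Foxa3-C2 (716 bp, rank 259). The merged region there, chr13:23673128-23674472, was also reached by Foxa2-N3 (rank 2231), Foxa3-N2 (rank 2109) and Foxa2-C3 (rank 7388), and held 1 4a3_DA1 peak. The strongest cluster peak lay elsewhere in the other lists. It was chr13:23964496-23964895 in Foxa2-N3 (rank 1544), chr13:23654970-23655466 in Foxa3-N2 (rank 1988), chr13:23774063-23774451 in Foxa3-N1 (rank 2808) and chr13:23457981-23458500 in Foxa2-C3 (rank 3523). The single peaks were chr13:21813649-21814024 in Foxa1-N3 (rank 425) and chr13:23964458-23964867 in Foxa1-C3 (rank 2358). The strongest in 4a3_DA1, chr3:96043329-96043743, ranked 20 of 698 and was met by 4 Foxa lists.

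The clusters held few of the sites that 6 or more lists share. Of the 79 regions, 30 were reached by 1 Foxa list (38.0%, against 47.5% of all 24999 merged regions of the genome). Those reached by 2 numbered 25 (31.6% against 20.9%), by 3 15 (19.0% against 9.94%), by 4 3 (3.80% against 6.50%) and by 5 4 (5.06% against 4.96%). None was reached by 6 and 2 by 7, and none by all 8, whereas 3.91, 4.15 and 2.12% of all regions were reached by 6, 7 and 8 lists. In all, 49 regions (62.0%) were reached by 2 lists or more, and 29 when a list had to share a reciprocal 50% overlap with the widest peak. Merged at 1 bp of overlap, a smaller share of regions was thus reached by 1 list alone in the clusters than among all regions. No value over all regions is given for the reciprocal rule, so the comparison holds for the 1 bp rule only. The part of peak width in it was not tested.

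The 2 regions of 7 lists held no 4a3_DA1 peak and lay in blocks 1 and 4. At chr13:23964458-23964916 all lists but Foxa1-N3 had 1 peak, with similar widths of 299 bp in Foxa3-C2, 358 bp in Foxa3-C1, 400 bp in Foxa2-N3, 361 bp in Foxa3-N2, 424 bp in Foxa3-N1, 418 bp in Foxa2-C3 and 410 bp in Foxa1-C3. At chr13:21813250-21814188 all lists but Foxa1-C3 had a peak. There Foxa3-N2 and Foxa2-C3, both precipitated with the Foxa2 antibody, ranked it at percentiles 23.9 and 27.7 of their lists, while Foxa3-C2 ranked it at 87.5, Foxa3-C1 its 2 peaks at 87.9 and 89.5, and Foxa2-N3 at 93.3. Foxa1-N3, also from the Foxa3 antibody, lay between them at 44.5, as did Foxa3-N1 at 63.2. Single Foxa3-C1 peaks in both regions were narrower than the median of 976 bp of its cluster peaks. They were 358 bp at chr13:23964458-23964916, and 431 and 420 bp at chr13:21813250-21814188. The 2 peaks at chr13:21813250-21814188 lay side by side and summed to 851 bp.

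Of the other most shared regions, those reached by 5 lists were chr13:23673128-23674472, chr13:23653402-23655469, chr13:22281021-22281633 and chr3:96023477-96025379. The region at chr13:22281021-22281633 was reached by Foxa3-C1, Foxa2-N3, Foxa3-N2, Foxa3-N1 and Foxa2-C3, and the other 3 had Foxa3-C2 in place of Foxa3-N1. Regions reached by 4 lists were chr13:23789466-23790498, chr3:96043144-96044591 and chr13:21900881-21902655. Foxa3-C2, Foxa3-C1 and Foxa3-N2 reached all 3, joined by Foxa2-N3 in the first and second, which held 2 4a3_DA1 peaks each, and by Foxa2-C3 in the third, which held none. The best ranked region of 3 lists was chr13:22132167-22133437, with Foxa3-C2, Foxa3-C1, Foxa2-N3 and 1 4a3_DA1 peak.

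No cluster region was reached by all 4 lists of a terminal layout and by none of the other layout. In the genome such regions made up 0.024% of all regions for the Foxa3 N-terminal domain (6 regions) and 1.22% for the Foxa3 C-terminal domain (304 regions). For the Foxa3 DNA-binding domain the cluster count was 0 as well, against 0.056% of all regions (14), and for that of Foxa1 or Foxa2 it was 0, against 0% of all regions. Lists of 956 to 16543 peaks limit what such counts can show.

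Counted by any list rather than all, regions reached by constructs with the Foxa3 N-terminal domain and by no other numbered 42 of 79 (53.2%), against 8.84% of all regions. Regions reached by constructs with the Foxa3 C-terminal domain alone numbered 11 (13.9%), against 61.3%. Regions reached with the Foxa3 DNA-binding domain alone numbered 50 (63.3%, against 37.7%) and with that of Foxa1 or Foxa2 alone 4 (5.06%, against 15.2%). Those reached with Foxa2 as partner alone numbered 14 (17.7%, against 50.8%), and with Foxa1 alone 25 (31.6%, against 11.7%). Foxa3-C1 was the single list in 22 regions and enters 3 of these counts. Foxa2-N3 was the single list in 3 regions, Foxa3-N2 in 2, Foxa3-N1 in 2 and Foxa2-C3 in 1, and Foxa3-C2 in none.

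Sharing between pairs of lists in the clusters departed from sharing elsewhere. Of the 36 Foxa3-C2 cluster peaks, 35 met a Foxa3-C1 peak (97.2%, exact 95% interval 85.5 to 99.9%), against 82.7% in the rest of the list. From the other side, 49.2% of Foxa3-C1 cluster peaks met a Foxa3-C2 peak, against 39.3%. With the Foxa3 C-terminal lists the same Foxa3-C2 peaks met far fewer partners in the clusters than elsewhere: 2 of 36 met Foxa3-N1 (5.56%, interval 0.680 to 18.7%, against 71.9%), 6 of 36 met Foxa2-C3 (16.7% against 79.5%) and 11 of 36 met Foxa3-N2 (30.6% against 77.3%). From the other side, Foxa3-N1, Foxa2-C3 and Foxa3-N2 cluster peaks met Foxa3-C2 in 28.6% (against 33.6%), 29.4% (against 20.6%) and 30.6% (against 16.7%).

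Foxa3-C1 cluster peaks met Foxa3-N1 in 7.94% (against 52.8% in the rest), Foxa2-C3 in 15.9% (against 66.4%) and Foxa3-N2 in 36.5% (against 60.4%). Read from those lists, Foxa3-N1 met Foxa3-C1 in 57.1% of its 7 cluster peaks (against 51.8%), Foxa2-C3 in 52.9% (against 36.2%) and Foxa3-N2 in 66.7% of 36 (against 27.4%). Foxa2-N3, with the Foxa2 DNA-binding domain, met Foxa3-C1 in 75% and Foxa3-C2 in 70% of its 20 cluster peaks, against 67.5 and 45.6% in the rest. It met Foxa3-N1 in 15% and Foxa2-C3 in 30%, against 68.4 and 78.2%. The Foxa2-C3 and Foxa3-N2 lists, both from the Foxa2 antibody, met each other in 15 of 17 Foxa2-C3 peaks (88.2% against 67.7%) and 16 of 36 Foxa3-N2 peaks (44.4% against 56.3%).

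The median percentile of cluster peaks was past 50 in Foxa3-C2, Foxa2-N3, Foxa3-N2 and Foxa2-C3, so the shares were also taken over the weaker 50% of each list. There 95.2% of Foxa3-C2 cluster peaks met Foxa3-C1, against 71.6% in the rest, and 9.52% met Foxa3-N1, against 59.8%. In Foxa2-N3 11.8% met Foxa3-N1, against 52.7%, and in Foxa3-N2 71.4% met Foxa3-C1, against 13.9%. Other contrasts nearly vanished there: Foxa3-C1 met Foxa3-C2 in 18.5%, against 18.5% in the rest, and Foxa3-N2 in 48.1%, against 51.3%, and Foxa3-N2 met Foxa2-C3 in 32.1%, against 34.96%.

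**Figure D4:**
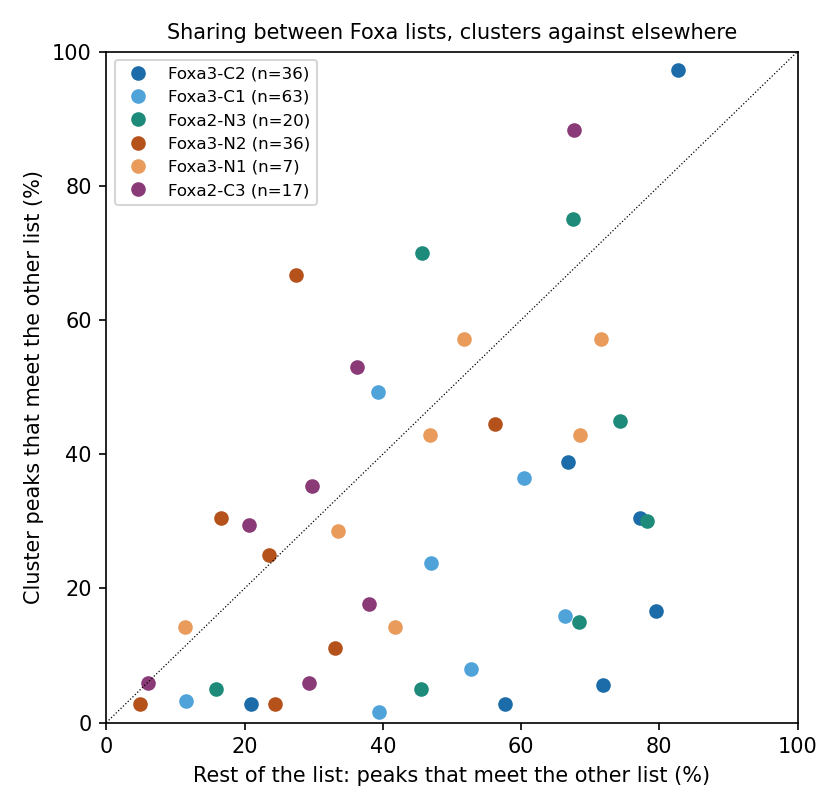
Percent of a list's peaks that meet a peak of another Foxa list, in the clusters (y axis) and in the rest of the list (x axis). Each point is 1 ordered pair of lists, coloured by the list whose peaks were counted (lists with 7 or more cluster peaks), and the dotted line marks equality. Foxa3-C2 against Foxa3-N1 lies far below the line at 5.56% and 71.9%, and Foxa3-N2 against Foxa3-C1 far above it at 66.7% and 27.4%.

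The 4a3_DA1 library, labelled with an Hnf4alpha antibody, was met in the clusters by 4 Foxa lists. Its 27 cluster peaks were met by Foxa3-C1 in 27 cases, by Foxa3-C2 in 23, by Foxa2-N3 in 12 and by Foxa3-N2 in 5, and by none of the other 4 lists. Outside the clusters the 671 peaks of 4a3_DA1 were met by Foxa3-C1 in 29.7%, by Foxa3-C2 in 14.5%, by Foxa2-N3 in 11.3% and by Foxa3-N2 in 15.1%, and there Foxa3-N1 met 27 and Foxa2-C3 55. In the clusters 26 of the 27 lay wholly inside a Foxa3-C1 peak, with a median of 246 bp between midpoints. With midpoints within 200 bp in place of any overlap, Foxa3-C1 met 13, Foxa3-C2 14, Foxa2-N3 9 and Foxa3-N2 2 of the 27.

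Read from the Foxa side, peaks that met 4a3_DA1 over whole lists were rare, at 2.53% in Foxa3-C2, 2.19% in Foxa3-C1, 1.19% in Foxa2-N3 and 0.941% in Foxa1-N3, and 0.586% in Foxa3-N2, 0.328% in Foxa3-N1, 0.372% in Foxa2-C3 and 0.208% in Foxa1-C3. In the clusters 20 of 36 Foxa3-C2 peaks met it (55.6%, exact 95% interval 38.1 to 72.1%, against 1.996% in the rest of the list). For Foxa3-C1 the count was 21 of 63 (33.3%, 22.0 to 46.3%, against 1.93%), for Foxa2-N3 9 of 20 (45%, 23.1 to 68.5%, against 1.02%) and for Foxa3-N2 5 of 36 (13.9%, 4.67 to 29.5%, against 0.557%). None of 7 Foxa3-N1 peaks met it, which allows up to 41.0%, nor any of 17 Foxa2-C3 peaks, which allows up to 19.5%, nor the single peaks of Foxa1-N3 and Foxa1-C3. Since the windows were chosen for their density in 4a3_DA1, a share above that of the rest of the list is in part set by the choice. The difference between Foxa lists is no independent support either, since earlier results on these windows were known. Cluster peaks covered 61424 bp in Foxa3-C1 and 2930 bp in Foxa3-N1, and the part of covered length in the overlap was not tested.

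**Figure D5:**
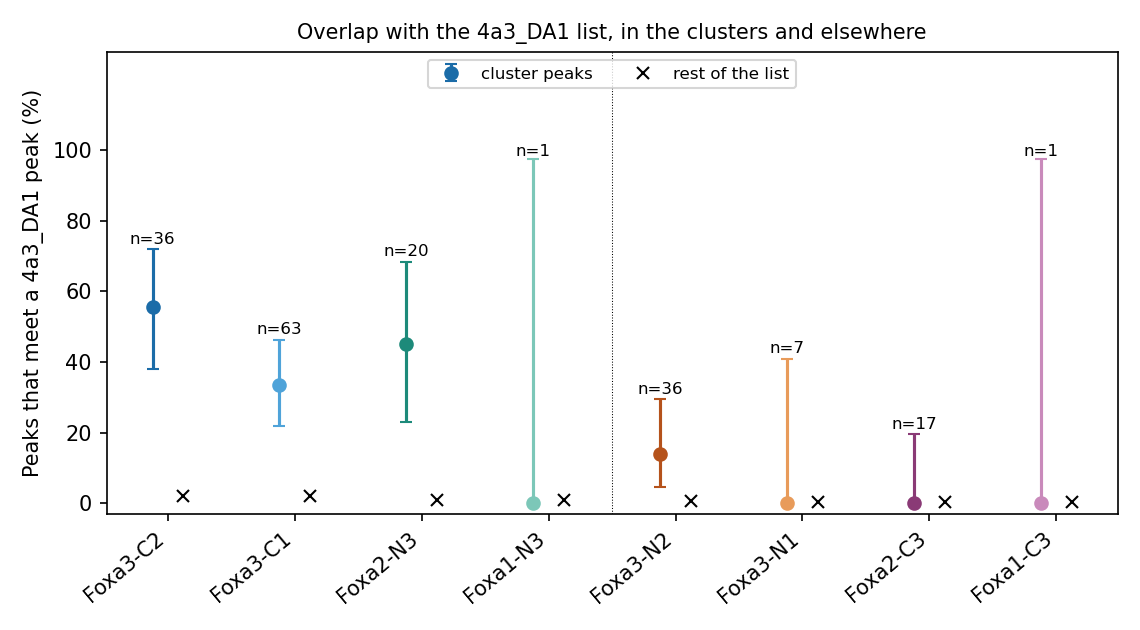
Percent of Foxa peaks that meet a 4a3_DA1 peak, for cluster peaks (points with exact 95% intervals, number of peaks above) and for the rest of each list (crosses). Foxa3-C2, Foxa2-N3 and Foxa3-C1 stand at 55.6, 45 and 33.3%, Foxa3-N2 at 13.9%, and the other 4 lists at 0%, and all crosses lie at or below 1.996%.

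Foxa3-C1 peaks that met 4a3_DA1 were wider (median 1165 bp) than those that did not (603 bp) and stood higher in their list (median percentile 15.7 against 59.8). In Foxa3-C2 the medians were 625 and 555.5 bp, and percentiles 47.4 and 88.0. In Foxa2-N3 the widths were 441 and 396 bp. In Foxa3-N2 the order was the other way, with 327 bp for peaks that met it and 383 bp for those that did not, and percentiles of 84.8 and 67.4. At 1 bp of overlap a wider peak meets another more easily, and the part of this in the width contrasts was not tested. Of the 79 regions, 21 held a 4a3_DA1 peak and 58 did not. Foxa3-C2 reached 20 of the 21 and 11 of the 58, Foxa3-C1 21 and 41, Foxa2-N3 10 and 9, Foxa3-N2 6 and 27, and Foxa2-C3 2 and 15. Foxa3-N1 reached 0 of the 21 and 7 of the 58. Of the 42 regions reached with the Foxa3 N-terminal domain alone, 15 held a 4a3_DA1 peak, and of the 11 reached with the Foxa3 C-terminal domain alone, 0. The 0 is no separate result. Foxa3-C1, which carries the Foxa3 N-terminal domain, reached all 21 regions with a 4a3_DA1 peak, so none was left for the Foxa3 C-terminal domain alone.

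The difference in share between the terminal layouts was then taken without the peaks that met 4a3_DA1, an alternative chosen after seeing the data. Without them the clusters held 0.457% of the Foxa3-C2 list, 0.570% of Foxa3-C1, 0.213% of Foxa2-N3 and 0.106% of Foxa1-N3, against 0.188% of Foxa3-N2, 0.0921% of Foxa3-N1, 0.124% of Foxa2-C3 and 0.0208% of Foxa1-C3. The difference was 0.230 percentage points (exact two-sided permutation p = 0.0857, adjusted 0.257), with 0.468 when all peaks were counted. What part the 4a3_DA1 sites have in the difference by layout was not tested.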

How the data were processed

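Peak lists of 9 ChIP libraries, 8 of Foxa chimeras and 1 titled 4a3_DA1, were analysed as deposited; the 9 inputs were not analysed here. Per the submitters' processing notes, tools included BWA 0.6.2, MACS2 2.1.0 and bedtools 2.16.2, with mm9 as build. The caller's settings and its use of the input were not given in the sources used here. In the deposited lists a line gives chromosome, start, end, name and a score of 1 peak. The kind of the authors' score is not stated; it served to rank peaks within a list and for a filter, the pooled median being 19.2. Starts are printed counting from 1.

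The windows, the members and the lists were chosen with earlier results of these data known. Peaks were assigned to a window by midpoint, peaks met at 1 bp of overlap, and regions are merged overlapping peaks of the 8 Foxa lists. Named items were the highest-scoring and the widest cluster peak of each list and the 10 regions found in the most Foxa lists, ties by mean rank percentile; the peaks at the window borders and others named beside them were picked once their values had been seen. For the main comparison, the share of each list in the clusters was tested by an exact permutation test, two-sided, of all 70 ways to split the 8 constructs, adjusted by Benjamini-Hochberg over 3 groupings. Nothing in the labels gives separate cultures, so a p-value here reflects how single libraries of unlike constructs vary. Width, rank, spacing and overlap were described without a test. Intervals are exact (Clopper-Pearson) 95% binomial intervals and cover counting error only, since depth is unknown.

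Promoters and gene order come from RefSeq tables of GRCm38.p6, with no coordinates carried over to mm9, and no sequence of a peak was read. Values were computed in Python 3.11.15 with pandas 2.3.3, numpy 2.4.6, matplotlib 3.10.9 and scipy 1.17.1. Overlap counts were the same as those of bedtools 2.31.1 in 8 of 8 lists, and cluster counts planted in simulated lists were recovered in 20 of 20. Alternatives were 1 bp of overlap with the window, merging within 1 kb, the strongest 956 peaks, a score above the pooled median, each window alone, reciprocal 50% overlap, midpoints within 200 bp and leaving out each construct.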

Additional observations from a re-analysis of the deposited data

Results flagged for a closer look

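Groups of 4 to 8 libraries were searched for a library far from the others in 12 comparisons, where chance flags about 1 in 20. Over the 8 constructs, the median width of cluster peaks in Foxa3-C1, 976 bp, stood far above the other 7. Within the 4 constructs with the Foxa3 C-terminal domain, Foxa3-N2 was flagged, with 13.9% of its cluster peaks meeting a 4a3_DA1 peak and 0% in the other 3. As those 3 tied at 0%, any value above 0% would have been flagged. Foxa1-C3 had 1 cluster peak, and the exact 95% intervals reached 41.0% in Foxa3-N1 (7 peaks) and 19.5% in Foxa2-C3 (17 peaks), so both include 13.9%. The mean of the median widths, Foxa3 N-terminal domain minus Foxa3 C-terminal domain, was 409 bp with the Foxa3 DNA-binding domain and -21.2 bp with that of Foxa1 or Foxa2. This was listed because every pair moved up with the Foxa3 DNA-binding domain and every pair down with the others. The difference was not tested, and Foxa1-N3 and Foxa1-C3 rest on 1 peak each. The opposite sign holds only for medians not set against the rest of each list. Cluster medians lay above the rest in Foxa2-N3 (409.5 against 407 bp) and Foxa1-N3 (376 against 307 bp). They lay below it in Foxa2-C3 (418 against 462 bp) and Foxa1-C3 (410 against 413 bp).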

How the results depend on the processing

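Over 86 alternatives, 75 kept direction and side of the threshold or moved by less than the spread set for them, 8 moved and 3 turned round. The partner difference was 0.168 percentage points with all peaks and turned round to -0.0523 (exact permutation p = 0.714) with the strongest 956 peaks of each list, -0.0323 (p = 0.943) with scores above the pooled median and -0.0221 (p = 0.914) without Foxa3-C2. The other 45 of the 48 alternatives on shares kept the direction, and no p fell below 0.05. Among the 45, the sign-flip test reuses the same differences, and 1 bp of overlap with the window took the same peaks. Their direction could not have changed. Where 1 construct was left out, or 4 pairs were used, no values could have given a p below 0.05. There the side of the threshold was fixed in advance. Leaving out 1 construct at a time, the difference ranged from 0.328 to 0.627 by terminal layout, from 0.224 to 0.527 by DNA-binding domain and from -0.0221 to 0.359 by partner. Regions in 2 lists or more numbered 29 in place of 49 under reciprocal 50% overlap, and 4a3_DA1 cluster peaks met by any Foxa list numbered 20 in place of 27 with midpoints within 200 bp; the cause of these shifts is the stricter rule itself. With scores above the pooled median, the median percentile of Foxa3-N1 cluster peaks was 73.8 in place of 48.7, and 4a3_DA1 kept 1 cluster peak, of 415 bp and percentile 100, in place of medians of 124 bp and 39.97. Foxa3-C2 met 14 of the 27 4a3_DA1 peaks with midpoints within 200 bp and 26 within 1 kb, in place of 23, and Foxa3-C1 met 13 with midpoints within 200 bp, in place of 27. No paired analysis was possible by replicate number, because each construct has 1 library; constructs matched by domain gave p = 0.125 by exact sign-flip over 4 pairs for each grouping. Counts of 1 to 7 cluster peaks in Foxa1-N3, Foxa1-C3 and Foxa3-N1 limit every share taken over them.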
